A study of Mus musculus with 2 samples.

Results

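H3K4me3 peaks that were wide and lay at the start of a protein-coding gene were examined where they stood in the peak list of lung ILC2s from offspring of control mothers and had no overlapping peak in the list from offspring of asthmatic mothers. They were chosen by that rule: an autosomal peak at least 400 bp wide, within 1000 bp of the start of a protein-coding transcript of GENCODE vM21, that shared no base with any peak of the other list. Of 7762 wide coding-start peaks of the control list, 942 met the rule and 6820 did not, so that 12.1% (95% exact interval 11.4 to 12.9) had no counterpart. The 942 peaks lay at starts of 1048 of the 8219 genes with a wide coding-start peak (12.8%). The whole control list held 42126 peaks and the whole asthmatic-mother list 51610.

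The cells were group 2 innate lymphoid cells (ILC2s) sorted from the lungs of 8-week-old mice, and the histone mark was read by CATCH-seq, a ChIP-seq for few cells in which carrier DNA is added to chromatin cut with MNase. Mothers were sensitized with ovalbumin (OVA) in alum and given OVA into the nose during pregnancy (asthmatic), or received PBS with alum and then PBS (control), and all mated with untreated males. Offspring of both groups were wild-type C57BL/6J, and came from 1 pregnant dam per group. How many offspring gave the cells of each H3K4me3 library is not given in the sources used here. Each group was 1 library with no replicate, so differences between the lists carry no p-value, and differences between treatments, single dams, litters, sorts and libraries cannot be told apart. All intervals below cover counting error over peaks or genes only, and peaks of 1 library are not replicates of a condition. A peak list does not tell fewer marked cells from less mark per cell.

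Trimethylation of lysine 4 on histone H3 sits on the nucleosomes around the starts of genes that are transcribed or ready for it, and is weak elsewhere. It is deposited by COMPASS-type methyltransferases, some of which are brought to unmethylated CpG islands by CXXC zinc fingers, so starts in CpG islands usually carry broad, strong marks and starts poor in CpG narrower ones. ILC2s respond to alarmins such as IL-33 and TSLP with IL-5 and IL-13, and depend on IL-7 receptor signalling and on GATA3. The label was checked against markers: coding starts of 14 of 17 ILC2 markers had a peak in the control list and 9 of 17 in the asthmatic-mother list, which had none at Gata3, Il7r, Il2ra, Il5 and Tcf7. Over all autosomal coding-start peaks of the control list, of any width, 3483 of 12194 overlapped no peak of the other list. The latter count is over peaks and the marker count over genes. None of the marker genes for T cells, B cells, macrophages, neutrophils or fibroblasts had a start peak in either list. Of 6 epithelial markers Epcam alone had one and of 5 endothelial markers Kdr alone, both in the control list.

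Stretches of 160 bases from 9 of these peaks show the range of sequence under them, from dense in CpG to hardly a CpG. They were chosen after the values were seen, to span that range, and are exon-free in GENCODE. Each is the plus strand of the GRCm38.p6 reference, 5′ to 3′, with CpG dinucleotides in capitals.
Arel1 and Fcf1, chr12:84970469-84970628: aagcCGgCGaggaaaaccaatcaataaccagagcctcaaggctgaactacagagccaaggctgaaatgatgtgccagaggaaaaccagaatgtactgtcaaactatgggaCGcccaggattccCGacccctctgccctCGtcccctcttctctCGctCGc
Zfp169, chr13:48513132-48513291: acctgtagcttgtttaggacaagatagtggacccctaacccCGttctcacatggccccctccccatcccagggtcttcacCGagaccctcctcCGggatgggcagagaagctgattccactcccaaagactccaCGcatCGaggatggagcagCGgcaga
Nfil3, chr13:52980701-52980860: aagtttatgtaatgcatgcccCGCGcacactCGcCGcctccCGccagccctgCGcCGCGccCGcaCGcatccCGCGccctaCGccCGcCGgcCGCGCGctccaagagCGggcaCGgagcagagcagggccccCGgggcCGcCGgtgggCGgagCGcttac
Epcam, chr17:87636895-87637054: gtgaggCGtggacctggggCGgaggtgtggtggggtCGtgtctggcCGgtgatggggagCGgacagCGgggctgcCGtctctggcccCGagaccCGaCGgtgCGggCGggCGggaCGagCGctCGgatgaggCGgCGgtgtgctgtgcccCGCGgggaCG
Traf3, chr12:111167108-111167267: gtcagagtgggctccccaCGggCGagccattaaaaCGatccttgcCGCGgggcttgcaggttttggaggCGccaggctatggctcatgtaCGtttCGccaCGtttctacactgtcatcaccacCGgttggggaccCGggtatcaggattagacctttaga
Pdcd1, chr1:94052255-94052414: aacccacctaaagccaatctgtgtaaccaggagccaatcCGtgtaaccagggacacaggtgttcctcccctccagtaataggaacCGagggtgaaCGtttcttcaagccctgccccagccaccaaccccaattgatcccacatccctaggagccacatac
Gimap9, chr6:48676324-48676483: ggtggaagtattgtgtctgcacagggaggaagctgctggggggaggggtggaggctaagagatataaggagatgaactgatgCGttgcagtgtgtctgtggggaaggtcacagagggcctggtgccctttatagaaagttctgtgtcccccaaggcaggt
Cysltr2, chr14:73049115-73049274: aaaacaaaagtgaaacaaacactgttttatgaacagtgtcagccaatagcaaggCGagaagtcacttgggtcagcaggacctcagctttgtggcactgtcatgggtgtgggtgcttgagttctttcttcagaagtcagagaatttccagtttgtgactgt
Il7r, chr15:9528730-9528889: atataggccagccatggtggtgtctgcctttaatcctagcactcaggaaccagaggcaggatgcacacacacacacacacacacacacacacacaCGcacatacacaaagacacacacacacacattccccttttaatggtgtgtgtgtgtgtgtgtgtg

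The stretches at Nfil3 and Epcam held 25 and 21 CpG, that at Traf3 11, and those at Arel1 and Zfp169 7 and 6. Pdcd1, which encodes the inhibitory receptor PD-1, had 3. The stretches at Gimap9, Cysltr2 and Il7r each had 1. The Cysltr2 stretch lay just upstream of the start of the receptor gene. The other stretches lay downstream of the nearest coding start, from 103 bp at Zfp169 to 1098 bp at Il7r, so that they show sequence under the peaks and not the starts themselves. The Il7r stretch held a run of CA repeats in intron 1.

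The peaks without a counterpart lay toward the low end of the control list in width, in −log10 q (the peak caller's significance) and in fold (signal over the caller's background). Their median width was 503.5 bp, from 400 to 1306 bp, against 626 bp for the 6820 peaks with a counterpart. Median −log10 q was 9.11 against 15.0, and median fold 6.01 against 7.50. These measures come from the list that chose the peaks and are given as a description. In the plot of width against −log10 q the peaks without a counterpart fill the lower left corner but reach a −log10 q of 27.4.

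**Figure D1:**
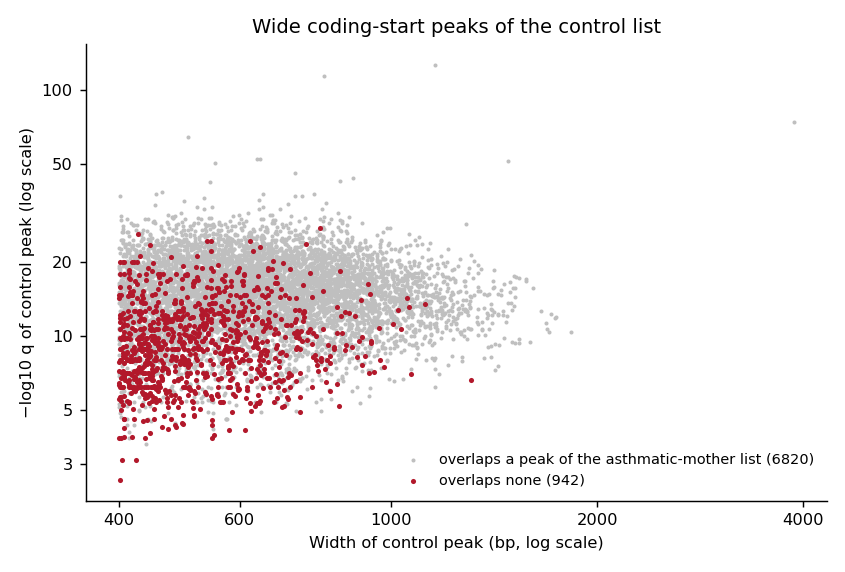
Width (bp, log scale) against −log10 q (log scale) of every wide autosomal coding-start peak of the control list, 1 point per peak, for 942 peaks without (red) and 6820 with (grey) an overlapping peak in the asthmatic-mother list. Red points gather at low width and low −log10 q, with medians of 503.5 bp and 9.11.

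The share of wide start peaks without a counterpart was lower among stronger control peaks. Among 10 equal parts ranked by −log10 q, it was 1.29% in the strongest (10 of 777 peaks), 5.41% in the sixth, 25.3% in the ninth and 47.7% in the weakest (371 of 777). By width it was 22.9% of peaks of 400 to 499 bp and 1.41% of peaks of 1000 bp or more. Control peaks as strong as the 10 of the strongest part thus nearly always had a counterpart.

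The number of sequenced fragments at a summit was solved from fold and p-value, on the assumption of a Poisson background and of calls made without the input library, although an input was set aside in the protocol. It had a median of 20 in the peaks without a counterpart (10 to 40) and 28 in those with one. At the 6820 shared starts, the overlapping peak of the asthmatic-mother list had a median of 17 fragments, and the median ratio of the second list to the first was 0.60. Where the control summit held 16 to 20 fragments, shared starts had 13 in the asthmatic-mother list, and 34.9% of starts had no counterpart. At 31 to 40 control fragments 2.12% had none. The smallest number at which the asthmatic-mother list held any peak was 8 fragments, and the fifth percentile of its peaks was 11. How much of the set reflects this lower count at starts in the second library was not tested.

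In the other direction hardly any such starts existed. The asthmatic-mother list had 3177 wide coding-start peaks, of which 6 (0.189%, 0.0693 to 0.411) overlapped no control peak, at Sos2, Gbp4 with Gbp8 and Gbp9, Tmem121b, Bicra, Gm10358 and Ces2h. The smallest peaks were 190 bp wide in the control list and 156 bp in the other. With the width limit scaled to these, at 328 bp, 14 of 4724 (0.296%) overlapped none.

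Just inside the width limit lay Cd1d1, Rabl2 and Ankrd12 (400 bp each), and just outside it Isca2 with Npc2, Fam241b and Lrr1 (399 bp each). Of 3483 autosomal coding-start peaks of any width without a counterpart, 942 passed 400 bp. The nearest peak of the asthmatic-mother list lay 2 bp from the Asap2 peak and 3 bp from those of Pawr and Phlpp1. On the other side of the overlap limit, Ahnak shared 3 bp, Mamdc2 13 bp and Adgrl2 21 bp. Thus for a small number of starts the outcome turned on a few bases.

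**Figure D2:**
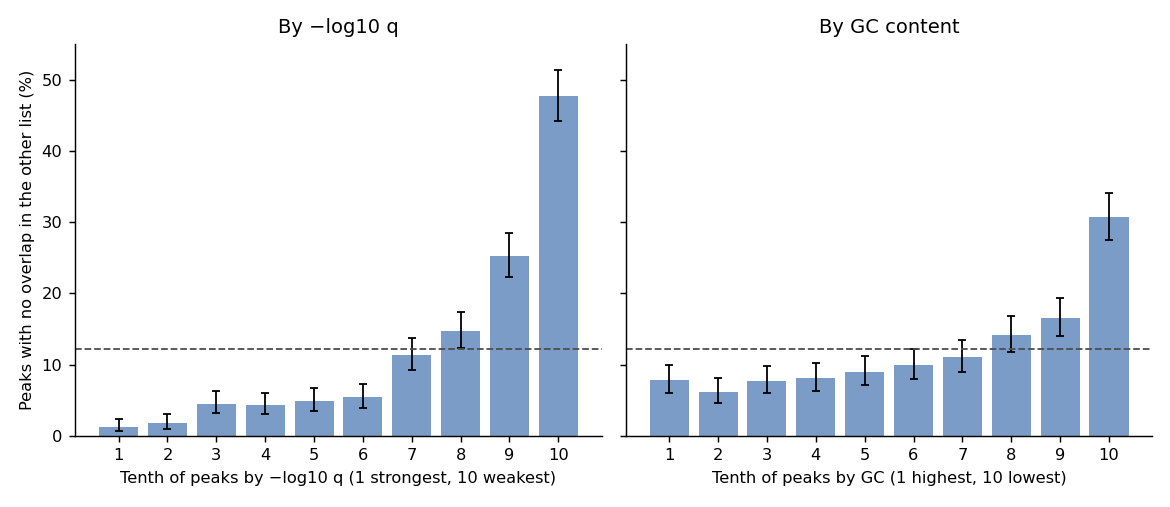
Share of wide coding-start control peaks with no overlapping peak in the asthmatic-mother list (%), in 10 equal parts by −log10 q (left, 1 strongest) and by GC content (right, 1 highest), with exact 95% intervals and the share over all peaks, 12.1%, as a dashed line. The share climbs to 47.7% in the weakest part and to 30.8% in the part of lowest GC.

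The sequence under the peaks was not used by the rule. In 500 bp around the summit, median GC content was 63.4% in the 942 peaks and 67.4% in the shared ones, and the CpG observed-to-expected ratio was 0.758 and 0.831. A ratio under 0.6, as at starts outside CpG islands, was found at 210 of 942 peaks (22.3%, 19.7 to 25.1) and at 672 of 6820 shared ones (9.85%, 9.16 to 10.6). GC content under 55% was found at 14.4% and 3.78%. Ranked by GC, the lowest 10% by GC had no counterpart for 30.8% of its peaks (27.5 to 34.1) and the highest 10% for 7.85% (6.06 to 9.97).

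The lower GC content was not tied to weak peaks alone. Median GC was lower without a counterpart in all 10 parts of like −log10 q, by 2.7 to 6.4 percentage points, with the widest gap in the strongest part (60.4% against 66.8%, the former from 10 peaks). When peaks were divided into 3 parts by −log10 q and 3 by width, the low-GC part of every one of the 9 cells had a larger share without a counterpart than the high-GC part. In the cell of strongest and narrowest peaks these shares were 10.0% and 0.769%. Over all coding-start peaks of any width, those of the control list had a median GC of 65.4% and 9.86% lay under 55%, against 66.4% and 6.97% in the asthmatic-mother list. Over all autosomal peaks the order was the other way, with a median GC of 50.6% and 49.6% and with 60.2% and 68.6% under 55%. Coding-start peaks made up 31.5% of the control list and 20.7% of the other. Whether the GC content of fragments differed between the 2 libraries was not tested.

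**Figure D3:**
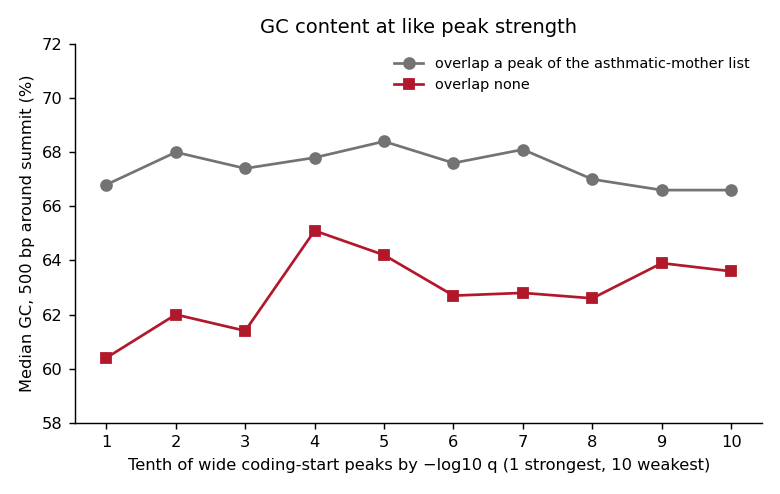
Median GC content (%) in 500 bp around the summit in 10 equal parts of wide coding-start peaks ranked by −log10 q, for peaks with (grey circles) and without (red squares) an overlapping peak in the asthmatic-mother list. The red line stays below the grey one in all 10 parts, and the vertical axis does not start at 0.

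Short motifs were counted in 300 bp around each summit, on both strands, as exact letters. CCAAT, the NF-Y motif, was present at 21.7% of peaks without a counterpart (19.1 to 24.4) and at 13.3% of shared ones (12.5 to 14.1). The GATA-factor motif, read as AGATAA, was present at 4.14% (2.96 to 5.62) and 1.91% (1.59 to 2.26), and the TATA box, read as TATAAA, at 3.08% (2.07 to 4.39) and 0.938% (0.723 to 1.20). Peaks without a counterpart also had lower GC content and more summits upstream of the start than shared ones. The part of base composition and summit place in these motif shares was not tested. AGAACA, the core of glucocorticoid response elements, was found at 9.13% and 7.39%, the ETS motif CCGGAAG at 10.6% and 10.8%, and the GC box GGGGCGGGG at 10.3% and 11.2%, all with overlapping intervals. The intervals of the other motifs searched overlapped as well. These were the YY1 motif AAGATGGCG at 1.49% and 2.35%, the AP-1 motif TGANTCA at 2.12% and 1.94%, the RUNX motif TGTGGTT at 2.97% and 1.76%, and the E-box CACGTG at 6.37% and 5.25%. The cAMP response element TGACGTCA was at 1.27% and 0.616%, the NRF1 motif GCGCATGCG at 0.955% and 0.748%, and the ZNF143 motif ACTACAATT at 0.212% and 0.0440%. In 31396 RefSeq promoters of the same length, placed upstream of the start, the NF-Y motif was found in 37.3%, that of GATA factors in 11.2%, the TATA box in 13.6%, the glucocorticoid core in 19.0%, the ETS motif in 9.00%, the GC box in 11.6% and the YY1 motif in 1.39%.

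The summits sat where H3K4me3 is usually strongest, just downstream of the start. The median summit lay 126 bp downstream of the nearest coding start, against 169 bp for shared peaks, and 74.8% and 74.6% lay within 300 bp of it. A summit upstream of the start was more frequent without a counterpart, at 200 of 942 (21.2%, 18.7 to 24.0) against 974 of 6820 (14.3%, 13.5 to 15.1). Intron 1 held 33.1% of the summits (42.5% of shared ones), the non-coding part of exon 1 27.6% (23.5%) and the coding part of exon 1 16.1% (17.8%). Starts on both strands lay near 12.7% of the peaks and 11.9% of the shared ones. Repeats made up little of the peaks: 1 of 942, upstream of Cartpt, was more than 50% repeat-masked. The 75 summit bases had an exact copy elsewhere at 8 peaks (0.849%) against 160 shared ones (2.35%), so that copied sequence was not more frequent in the set.

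**Figure D4:**
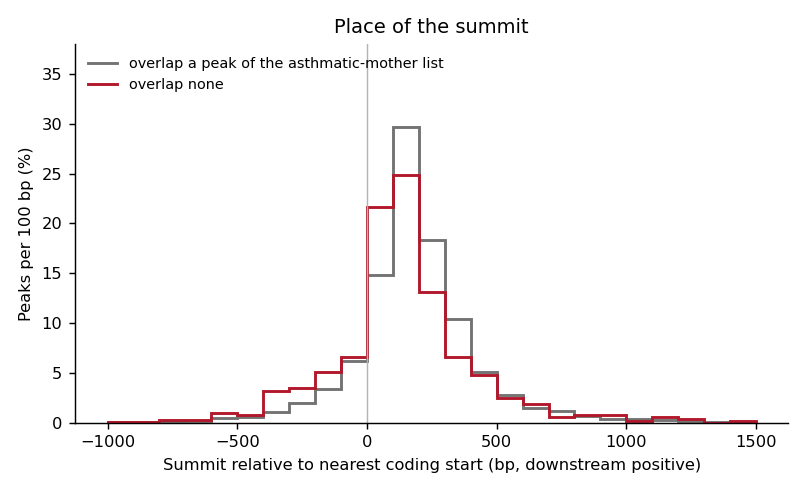
Position of the summit relative to the nearest coding start (bp, downstream positive) as the share of peaks per 100 bp, for shared peaks (grey) and peaks without a counterpart (red). Both lines peak between 100 and 200 bp downstream, and the red line is higher between 400 bp upstream and 100 bp downstream.

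For most genes the start was bare of peaks in the asthmatic-mother list. Of the 1048 genes, 774 (73.9%, 71.1 to 76.5) had no peak of that list within 1000 bp of any coding start, which is 9.42% of the 8219 genes with a wide start peak. Another 255 genes (24.3%, 21.8 to 27.0) had a further control peak at one of their coding starts that was shared. In 183 of these 255 genes the peak without a counterpart lay at most 500 bp from a peak of the asthmatic-mother list. That near peak was not in every case the counterpart of the gene's shared peak, which at Mark2 and Arhgap27 stood at a separate start. In 29 genes it lay more than 10 kb away, at a separate start of the gene.

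Peaks near a peak of the asthmatic-mother list differed in place from those farther off. Of 168 peaks with a peak of the asthmatic-mother list within 1000 bp, 64 (38.1%, 30.7 to 45.9) had the summit upstream of the start, against 136 of 774 (17.6%, 15.0 to 20.4) of the peaks with none that near. Their median −log10 q was 8.38 against 9.44 and median GC 62.6% against 63.6%. The near peak of the other list lay downstream of the unlisted one at 83 peaks and upstream at 85. In 175 of 254 genes with a shared peak and its counterpart the shared control peak was the stronger, and in 79 the unshared one was.

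The 10 strongest genes with a further shared start peak were Tecpr1, Rars2 with Orc3, Ndufaf5 with Esf1, Prdm9, Ece1, Tbk1, Ugdh and Cks2. All 10 had the counterpart of the shared peak within 262 bp of the unshared one. At Tecpr1, which encodes a protein of autophagosome maturation, the unshared peak was 628 bp wide with a −log10 q of 22.2, while the shared one was 194 bp wide with 8.02, and its counterpart, 246 bp from the unshared peak, 156 bp with 5.16. The stronger control peak was thus the one without a counterpart. At Tbk1, the kinase that activates IRF3, an unshared peak of 494 bp and −log10 q 17.0 stood 60 bp from the counterpart of a shared peak of 600 bp and 9.85, which was 516 bp wide with 10.0. Prdm9, the histone methyltransferase of meiotic recombination, had unshared and shared peaks with −log10 q of 18.9 and 12.0. Nr3c1, the glucocorticoid receptor gene, has 9 coding starts. Its unshared peak in intron 1 of the nearest coding transcript (511 bp, −log10 q 9.93, GC 40.2%) lay 27806 bp from the next peak of the asthmatic-mother list, and 2 other control start peaks of the gene were shared.

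The strongest peak without a counterpart stood between Arel1, a ubiquitin ligase gene, and Fcf1, a gene of ribosomal RNA processing (chr12:84970366-84971151, 786 bp, fold 11.8, −log10 q 27.4, 36 fragments). The next peak of the asthmatic-mother list lay 25265 bp away. Zfp169 with A830005F24Rik followed with a −log10 q of 25.9 over 426 bp. Then came Zpbp (24.4), a gene of sperm binding to the egg, Cdt1 (24.4), the licensing factor of DNA replication, and Pccb (24.3), a subunit of propionyl-CoA carboxylase. Wdr11 had 23.7, Ift46, of intraflagellar transport, 23.5, and Btc, the EGF receptor ligand betacellulin, 22.9. Mtg1 had 22.2, Tlr3, the endosomal sensor of double-stranded RNA, 21.1, and Zfp830 with Cct6b 21.1. Zfp950, Slc7a4, Saal1, Nars2, Cwc25 and Ccndbp1 had 19.9 to 20.1 and, with the Tecpr1, Rars2 and Ndufaf5 peaks above, completed the 20 strongest. These starts had 28 to 40 fragments in the control library, within the range in which 2.12 to 5.52% of starts had no counterpart.

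The 10 widest peaks lay at Hs6st1 (1306 bp), Cartpt (1121 bp), Bad (1068 bp), Sdf2 with Supt6 (1061 bp), Ppargc1b (1055 bp), Foxp1 (1032 bp), Mzt2 (1022 bp), Farp2 (1005 bp), Gbp5 (974 bp) and Plpp3 (961 bp). The Hs6st1 peak, at a heparan sulfate sulfotransferase gene, was wide but weak, with a −log10 q of 6.61 and 20 fragments. Bad, a pro-apoptotic BCL2 family gene, had 6.96. Ppargc1b, a coactivator of mitochondrial biogenesis, was wide and stronger, with 14.3 and 34 fragments. The Cartpt peak lay wholly in repeats 131 bp from a peak of the asthmatic-mother list with a −log10 q of 34.1.

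Among the ILC2 markers with a wide control start peak, 1 of 7 was without a counterpart, Il7r, the IL-7 receptor alpha chain. Its peak (chr15:9528571-9529018, 448 bp, −log10 q 11.4, 33 fragments, fold 4.89) had its summit 1018 bp downstream of the coding start, in intron 1, with a GC content of 40.8% and 42.6% of bases repeat-masked. No other control peak at a coding start of Il7r was shared, and the next peak of the asthmatic-mother list lay 12983 bp away. Epcam, the single epithelial marker with a wide peak, had 699 bp, −log10 q 14.7 and 24 fragments, and the next peak of the other list was 2716 bp off. The other 5 epithelial markers had no start peak in either list. Adult lung ILC2s were gated as CD45+, lineage- and ST2+ cells, with CD90 as a further marker in the reporting summary. The part of other cells in the Epcam peak was not tested.

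Of 43 genes for lymphoid transcription factors with a wide start peak, 10 were in the set (23.3%), with an interval from 11.8 to 38.6% that takes in the 12.8% over all genes. Nfil3, a factor needed for ILC development, was the strongest (680 bp, −log10 q 16.4, 37 fragments). A weak peak of the asthmatic-mother list, with a −log10 q of 2.85, lay 1657 bp from it. Foxp1 had 3 peaks without a counterpart, of 622, 838 and 1032 bp, at 3 of its starts. It also had a shared start peak (571 bp, −log10 q 5.83), and its 622 bp peak lay 286 bp from a peak of the other list. Foxo3 (858 bp, −log10 q 9.19) had a peak of the other list 256 bp away. Tox, needed for early ILC progenitors, Prdm1, which encodes BLIMP-1, E2f2, Zbtb20, Hhex, Irf8 and Gfi1 made up the rest, with −log10 q from 9.09 at Tox down to 5.13 at Gfi1. Tox also had a shared start peak, wider and stronger than its unshared one (1005 bp and −log10 q 11.2, against 457 bp and 9.09). A peak of the other list lay 523 bp from the unshared Tox peak. Of the 10 genes, 7 had no start peak at all in the asthmatic-mother list, near the 774 of 1048 (73.9%) over all genes of the set.

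Among interleukins, chemokines and their receptors 3 of 32 genes were in the set (9.38%, 1.98 to 25.0), namely Il7r, Il17d and Il2rb. At Il2rb, the beta chain of the IL-2 and IL-15 receptors, 2 neighbouring peaks of 487 and 402 bp lacked a counterpart, between 2 of its starts (−log10 q 6.68 and 6.76), and the next peaks of the other list lay 65187 and 65809 bp away. The TNF family was in the set at 8 of 26 genes (30.8%, 14.3 to 51.8). These were Tnfrsf22 (514 bp, −log10 q 16.8), Tnfsf9, the 4-1BB ligand (629 bp, 15.4), Traf3, a brake on non-canonical NF-κB signalling (559 bp, 15.1), Tnfrsf1a, Tnfrsf26, Ripk3, Lta and Tnfrsf18, which encodes GITR. The list of pattern recognition and interferon response genes was at 8 of 38 (21.1%, 9.55 to 37.3), with Tlr3, Slfn9 (425 bp, −log10 q 14.2) and Ifi47 (597 bp, 11.1) ahead of Irgm1, Ticam2, Gbp5, Irf3 and Irf8. It does not hold every such gene of the set, and leaves out Rtp4 (12.8), Tgtp2 (9.85), Naip5 and Naip6. Ifi47 and Tlr3 had 96071 and 11653 bp to the next peak of the other list.

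The exact intervals of the signalling lists took in the 12.8% over all genes, except that of a list of kinase families. NF-κB and antigen-receptor type signalling had 8 of 57 (14.0%, 6.26 to 25.8), namely Tbk1, Pik3cg (−log10 q 13.3), Plcg1 (11.6), Zap70, Ptpn6, Socs5, Socs3 and Jak3. Of these 8 genes 5 had no start peak in the asthmatic-mother list, beside 774 of 1048 (73.9%) over all genes of the set. Tbk1, Plcg1 and Socs5 had a further, shared start peak, with peaks of the other list 60, 138 and 184 bp from the unshared one. The MAP kinase pathway had 7 of 73 (9.59%), namely Map3k8, also called TPL2 (646 bp, 14.6), Dusp6, a phosphatase that turns off ERK (846 bp, 10.2), Fosl1 (9.81), Mapk12, Map3k20, Dusp8 and Spry4. Glucocorticoid receptor genes and classic targets had 4 of 20 (20.0%, 5.73 to 43.7), namely Nr3c2, the mineralocorticoid receptor (444 bp, 11.1), Nr3c1, Hsd11b2 and Per1. Of these, Nr3c2 and Nr3c1 had other start peaks that were shared, and Hsd11b2 and Per1 had no start peak in the asthmatic-mother list. The next peak of that list lay 1656 bp from the Nr3c2 peak. The list of small GTPases and their regulators had 24 of 193 (12.4%), led among its genes by Arhgef33, Arl5b and Arhgap11a (15.5, 15.0 and 13.9). Its other genes were Rab29, Dock2, which drives lymphocyte migration, Tbc1d17, Rab3a, Rasgef1b, Tbc1d14, Rhoc, Arhgap27, Arl6ip6, Dennd5b, Arhgef3, Cdc42se1, Arhgap25, Arhgap9, Arhgef39, Ralgds, Arhgap12, Rnd3, Dock5, Rab31 and Cdc42bpb. This list leaves out other genes of the class in the set, such as Sar1b (17.3), Arap2 (17.0), Rabl2 (14.2) and Tiam1 (13.9). The Wnt, Notch, Hedgehog, TGF-β and Hippo list had 8 of 51 (15.7%), with Wnt5b, Hey1 and Tgfb3 (9.76, 9.76 and 8.63) ahead of Bmp8a, Smo, Jag1, Ptch1 and Tgfb1. Phosphatases had 14 of 114 (12.3%), with Ptpre, Ppp1r8 and Cdc14b (13.6, 12.7 and 11.7) ahead of Mtmr7, Acp2, Dusp19, Ptprs, Dusp3, Ppp1r9b, Inpp5b, Ppp3ca and the Dusp6, Ptpn6 and Dusp8 genes named above. The list of kinase families had 6 of 112 (5.36%, 1.99 to 11.3), which were Taok3, Mark2, Pim3, Prkaa2, Prkg1 and Cdk5r1. It was built from symbols of some families, takes in Cdk5r1, which encodes an activator of a kinase, and leaves out other kinase genes of the set, such as Limk2 (−log10 q 17.7), Nim1k (12.9), Dapk1 (8.84) and the Tbk1, Map3k8 and Zap70 genes above, so that its share is not that of protein kinases.

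Histone-modifying enzymes and remodellers were present at 23 of 166 genes (13.9%, 8.99 to 20.1), close to the background. Prdm9, Prmt3, an arginine methyltransferase (−log10 q 18.9), and Smyd3 (17.0) were the strongest of the list, which does not hold the remodeller gene Hltf (17.8). Men1 encodes menin, a partner of MLL methyltransferases that deposit H3K4me3 (513 bp, 10.3). The others were Chd8, Jmjd6, Ing3, Wdr5b, Cbx2, Arid4b, Phf20, Arid2, Jade1, Nsd3, Prdm1, Arid5a, Sirt5, L3mbtl3, Prdm16, Brd2, Baz1a, Setd5 and Chd9. Zinc finger genes were at 30 of 272 (11.0%), and their strongest members Zfp169, Zfp830 and Zfp950 also stood among the 20 strongest of all. The others were Zfp30, Zscan26, Zkscan3, Zfp60, Zfp382, Zmym1, Zscan20, Zfp825, Zfp219, Zfp407, Zfp563, Zfp780b, Zfp383, Zfp579, Zfp184, Zfp280d, Zfp110, Zfp707, Zfp369, Zbtb20, Zfp446, Zfp444, Zfp36l1, Zfp677, Zfp870, Zfp651 and Zfp438.

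Of the lists with 20 or more genes with a wide start peak, those of adhesion genes and G protein-coupled receptors had, with the TNF family, the highest shares. Adhesion, integrin, cadherin, semaphorin and matrix genes were at 20 of 64 (31.3%, 20.2 to 44.1), led among the genes listed by Adamts10 (626 bp, −log10 q 11.1), Adamts3 (9.95) and Cldn23 (9.56), and including Cdh1, which encodes E-cadherin, Itga3, Sema4a and Efnb2. The adhesion list leaves out Epcam (14.7), Jup (12.9) and Podn (11.8), which are in the set. G protein-coupled receptors were at 16 of 56 (28.6%, 17.3 to 42.2), led by Gpr85 (546 bp, 13.7), Lgr4 (11.3) and Olfr56 (11.1), whose strongest peak is the one counted above at Ifi47. None of these 16 genes, and 1 of the 20 adhesion genes, had a start peak in the asthmatic-mother list. Over all 1048 genes of the set, 774 (73.9%) had none there. Developmental factors were at 14 of 60 (23.3%, 13.4 to 36.0), but 4 of those 14 alone had no start peak of the other list. Over the genes of these lists with a wide control start peak, the median −log10 q was 10.3 for adhesion, 11.5 for receptors and 11.6 for developmental factors, against 14.7 over all genes, and it was 11.2 for lymphoid transcription factors, 11.4 for pattern recognition and interferon response genes, 11.6 for the glucocorticoid list and 13.2 for the TNF family. The part of this difference in the shares was not tested.

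**Figure D5:**
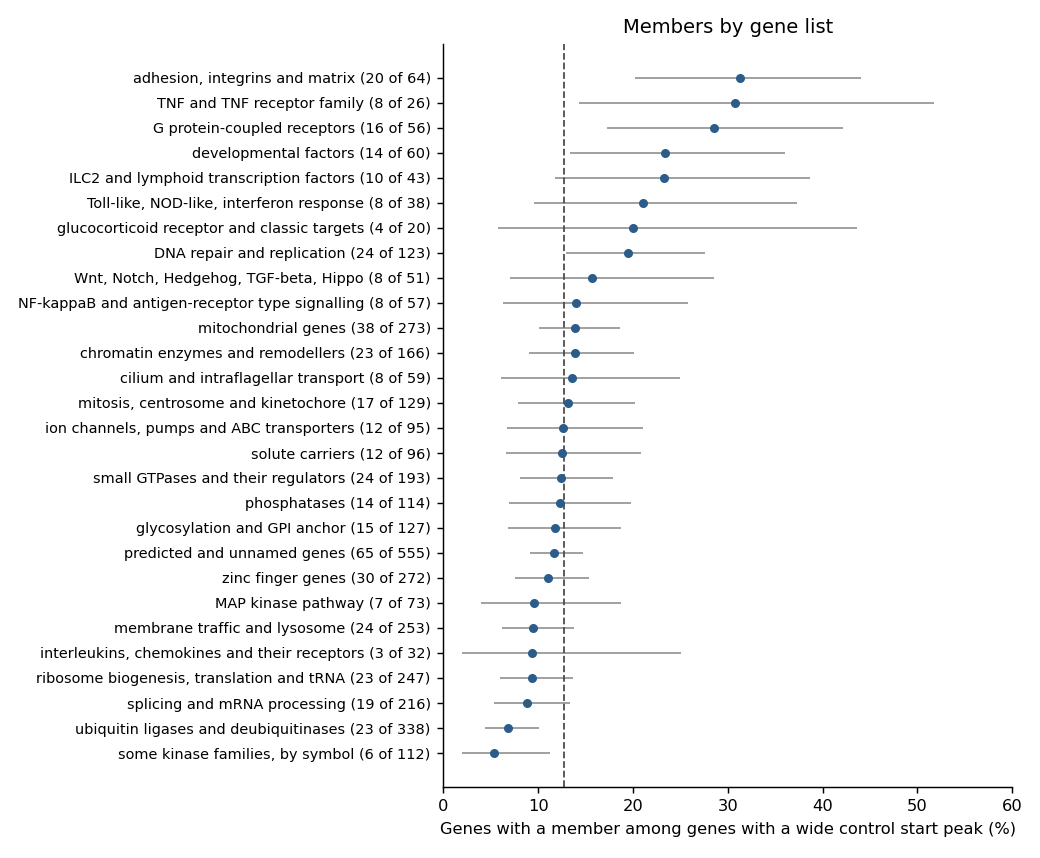
Share of genes with a wide control start peak that had a peak without a counterpart (%), for gene lists with 20 or more such genes, with exact 95% intervals and the share over all genes, 12.8%, as a dashed line. Adhesion genes (31.3%) and the TNF family (30.8%) lie highest, and the list of some kinase families (5.36%), which leaves out many kinase genes, lowest.

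Housekeeping lists spread on both sides of the background. The lists were built mostly from symbol patterns and do not hold every gene of a class. They also take in genes that do not strictly belong to it, such as Mettl23, Cdca7, Uba7 and Cops8 below. Each share and each leading gene is thus that of the genes listed. DNA repair and replication was above it with 24 of 123 (19.5%, 12.9 to 27.6) and a median −log10 q of 15.4 over the list's wide start peaks, not below that of all genes. Cdt1, Orc3 and Mutyh, which excises adenine opposite oxidized guanine (17.6), led it. The list of ubiquitin ligases and deubiquitinases, which does not hold Arel1, was below it at 23 of 338 (6.80%, 4.36 to 10.0), led among its genes by Klhl6, Uba7 and Cops8 (17.6, 16.5 and 15.2). The mitochondrial list, which does not hold Pccb and Mtg1, was at 38 of 273 (13.9%), with Rars2, Nars2 and Ndufaf5 on top. Mitosis and centrosome genes were at 17 of 129 (13.2%), led by Cdca7, Cenpk and Cenps (19.8, 17.8 and 16.9), and cilium genes at 8 of 59 (13.6%), led by Ift46, Tmem216 and Bbs10 (23.5, 16.8 and 14.7). The list of ribosome biogenesis and translation, which does not hold Fcf1, had 23 of 247 (9.31%), led among its genes by Nop58, Dhx33 and Nsun6 (19.0, 16.8 and 15.0). Splicing had 19 of 216 (8.80%), led by Cwc25, Mettl23 and Rbm8a (19.9, 14.4 and 13.6). Membrane traffic had 24 of 253 (9.49%), led by Atg14, Pex26 and Snx8 (15.6, 14.4 and 13.8), and glycosylation 15 of 127 (11.8%), led by Pigq, Alg11 and Pomt1 (13.8, 12.4 and 12.1). Solute carriers had 12 of 96 (12.5%), led by Slc7a4, Slc41a3 and Slc38a7 (20.0, 15.3 and 14.7), and ion channels and pumps 12 of 95 (12.6%), led by Atp7b, Atp6v0e and Kcnk5 (12.4, 12.3 and 11.5). Predicted and unnamed genes had 65 of 555 (11.7%), led by A830005F24Rik, Fam222b and 2310057M21Rik (25.9, 18.4 and 18.4).

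In 20 genes 2 or more peaks without a counterpart stood at coding starts, 3 each at Foxp1 and Olfr56. In 14 of them the peaks were at most 300 bp apart, and in 5 over 1000 bp apart. At Clpp, the mitochondrial matrix protease, peaks of 401 and 457 bp had −log10 q of 11.4 and 17.4. At Med29 with Paf1, subunits of the Mediator and PAF complexes, peaks of 431 and 547 bp had 9.25 and 14.3. At Nr4a3, an immediate early nuclear receptor gene, peaks of 463 and 696 bp had 7.73 and 6.01. Beside Il2rb, the other genes with 2 such peaks were Myo1c, Luzp1, Nipal3, Ndufaf8 with Tepsin, Ncbp2 with 0610012G03Rik, Taf5l, Atxn7l1, Pde7b, Mob3b, Kcnmb4 and 1110004F10Rik.

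By chromosome the share without a counterpart ran from 9.50% on chromosome 1 to 16.1% on chromosome 11 (100 of 621 peaks, 13.3 to 19.2).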

How the data were processed

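H3K4me3 CATCH-seq of sorted lung ILC2s was analysed for 1 library per maternal group. According to the study's methods and the submitters' processing notes, reads were trimmed with Trim Galore, aligned with Bowtie2 to mm10 (GRCm38) and freed of duplicates. The study's reporting summary says that no peaks were called on its ChIP-seq data, although peak lists were deposited, and names a peak caller for its ATAC-seq alone. The caller and settings behind these lists are thus not given in the sources used here. The deposited lists hold, per peak, a score, the authors' fold (a ratio of summit signal to background), and the authors' −log10 p-value and −log10 q-value against that background. These values are not scaled between the libraries. Peaks were ranked by them within a list alone. Fragment numbers solved from them were compared between the lists at shared starts, as counts not scaled for depth. At single genes −log10 q values of both lists are printed side by side, as a description. A setting given below puts the same −log10 q threshold on both lists, although the values are not scaled. The files give no read totals and the reporting summary gives 1 sequencing total that it does not split by library, so the depth of each library is unknown beyond the numbers solved at summits.

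Peaks were read with Python 3 (pandas, pysam) and compared with coding transcript starts of GENCODE vM21. A gene was counted once by symbol, at any coding start within 1000 bp of a peak edge. Fragments at summits were solved from fold and −log10 p within 0.01, assuming calls made without an input library. The protocol kept part of the lysate for an input, and whether it entered the calls is not given in the sources used here, so the fragment numbers hold under that assumption only. GC and CpG came from 500 bp, and motifs from 300 bp, of GRCm38.p6 around the summit. Selection and solving were tested on simulated data. Shares have exact Clopper-Pearson 95% intervals. The peaks and gene lists were chosen with earlier results of these data known. Named genes were those at the 20 strongest and 10 widest peaks, every gene of an immune, signalling or chromatin list, the 3 strongest of each other list, the 10 strongest with another shared start peak, those nearest a limit, and those with several such peaks. Genes picked for the printed sequences and others named beyond these were chosen after their values were seen. A few genes that the rule takes in are not reported here.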

Additional observations from a re-analysis of the deposited data

How the results depend on the processing

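The counts and medians were recomputed under 12 other settings, 11 chosen at the outset and 1, leaving out summits with an exact copy, after seeing the data. Of 132 values 85 stayed within the limits set for them (1.5 times for counts, the 95% interval for shares and medians). Median GC of the peaks without a counterpart lay below that of shared peaks in each of the 12 settings.

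With a −log10 q of at least 5 in both lists there were 1546 peaks (20.1% of wide start peaks) at 1693 genes, 760 of them in a list, 17.6% with another shared start peak, with medians of 529 bp, −log10 q 10.2, fold 6.21, GC 64.2% and CpG ratio 0.779. With that threshold on the asthmatic-mother list alone there were 1592 peaks (20.5%) at 1740 genes, 782 in a list, 18.1% with another shared peak, with medians of 526 bp, 9.96, 6.12, 64.2% and 0.778 and a summit distance of 141.5 bp. With a width of at least 300 bp there were 1759 peaks (18.1%) at 1936 genes, 901 in a list, 33.6% with another shared peak, with medians of 407 bp, 8.72, fold 5.68 and GC 62.4%. With 600 bp there were 240 peaks (5.98%) at 262 genes, 110 in a list, 18.7% with another shared peak, with medians of 682 bp, 9.67 and CpG ratio 0.777. Counting a peak as shared at a gap of at most 200 bp gave 11.3% without a counterpart and 18.8% of genes with another shared peak, and at 1000 bp 9.97%, 6.56% and a fold of 6.09. The 5′ end of the gene alone gave 20.1% and a summit distance of 195.5 bp, and joining peaks at most 200 bp apart 15.3% and a width of 537 bp. The causes of these shifts were not tested beyond what each setting changes by construction.

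Among lists with 20 or more genes, those of adhesion genes, G protein-coupled receptors, the TNF family, developmental factors, lymphoid transcription factors, Toll-like and interferon response genes, the Wnt to Hippo pathways and DNA repair lay above the share over all genes in all 12 settings. All settings draw on the same peak lists, so they are not independent. The fewest members in a setting were 2 for the TNF family and the Toll-like and interferon list. They were 3 for lymphoid transcription factors and the Wnt to Hippo pathways. Ubiquitin ligases, the kinase families, ribosome biogenesis, splicing and membrane traffic lay above it in 0 of 12. The glucocorticoid list ranged from 0 to 30.0%. No paired analysis was possible because each group is 1 library. With 1 library per group no replicate could be left out, and the low fragment numbers in the asthmatic-mother list, 17 at shared starts, limit what the absence of a peak shows.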

Other observations

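Genes outside the fixed lists made up 575 of the 1048, and groups of immune genes, most of them among these, were picked after their values were seen, so their counts support nothing and are given as a description. Among surface receptors and checkpoint molecules, 13 genes picked from the set had no start peak in the asthmatic-mother list, as held for 73.9% of all genes of the set. Since they were picked from the set, they have no share to read against the 12.8% over all genes. They were Cd1d1 (400 bp, −log10 q 14.7), which presents lipids, Cd151, Cd82, Cd38, an NAD-consuming ectoenzyme (742 bp, 12.4), Pdcd1 (525 bp, 10.9), Vsir, which encodes the checkpoint molecule VISTA (595 bp, 10.5), Dpp4 (702 bp, 8.34), Cd274, the PD-1 ligand (527 bp, 7.69), Fcgr3, Cd226, Sdc1, Cd24a and Cd9. Interferon-inducible and antigen-processing genes included Rtp4 (722 bp, 12.8), Gimap9 (573 bp, 12.6), Gimap3 (916 bp, 8.24), Tgtp2 (595 bp, 9.85), Xaf1, Naip5 and Naip6. Tap1 and Psmb9, which share a start region and serve peptide transport and the immunoproteasome, had 467 bp and 10.8, with a listed peak 474 bp away.

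Receptors for signals from nerves, lipids and metabolites were present as well, and those named here belong to the G protein-coupled receptors counted above. Nmur1, the neuromedin U receptor of ILC2s, had a peak of 410 bp with a −log10 q of 8.00, 28020 bp from the next peak of the other list. S1pr1, a receptor for egress from tissue, had 422 bp and 8.04, Cysltr2, for cysteinyl leukotrienes, 435 bp and 7.53, Gpr183, for oxysterols, 689 bp and 6.54, Ltb4r1, for leukotriene B4, 499 bp and 6.17, and the proton sensor Gpr65 494 bp and 4.41. Calca, which encodes calcitonin gene-related peptide, had 413 bp and 5.39, and Ptgs1, or cyclooxygenase 1, 436 bp and 8.84. Among regulators of apoptosis, Pmaip1 (574 bp, 8.84), Bcl2l11 (598 bp, 7.81), Bad (1068 bp, 6.96), Bmf (437 bp, 6.69) and Bcl2l12 (468 bp, 5.86) were in the set, and Bad and Bcl2l12 had a start peak in the asthmatic-mother list. The peaks of these receptors, enzymes and apoptosis genes lay below the median −log10 q of the set, 9.11.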
